A study of Mus musculus with 8 samples.

Results

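The 39 Hox genes of the HoxA, HoxB, HoxC and HoxD clusters were followed across mouse embryonic stem cells before and after differentiation, in wild type (WT) cells and in cells carrying the HNRNPK 6A mutation. All rows of the gene tables whose symbol is Hox, a cluster letter and a paralog number were taken, which gave 39 of 24421 genes. There were 11 in HoxA, 10 in HoxB, 9 in HoxC and 9 in HoxD. By position along the body axis, 12 were anterior (paralogs 1 to 4), 11 central (5 to 8) and 16 posterior (9 to 13). HNRNPK is an RNA-binding protein that links long noncoding RNAs to Polycomb repression. All groups share a hybrid CAST/Ei x 129/Sv/Jae background, in which reads can be given to either parental genome. The 4 groups were WT at day 0, 6A at day 0, WT at day 14 and 6A at day 14, with 2 libraries each. Day 0 cells were undifferentiated and had grown with leukemia inhibitory factor on irradiated mouse embryonic fibroblasts, which were taken away for the harvest. Day 14 cells had been taken off the factor, grown in suspension as embryoid bodies for 4 days and plated on day 5. One sentence of the series text gives day 7 for the differentiated cells, whereas the sample titles and protocol give day 14, which is used here. What the 6A mutation substitutes, and whether the 6A cells are 1 clone or several, could not be read from the labels.

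Hox genes encode homeodomain transcription factors that give cells their position along the head-to-tail axis. Within a cluster, genes at the anterior end are switched on earlier and closer to the head than genes at the posterior end. Retinoic acid acts mainly on the anterior end, while Cdx factors with Wnt and Fgf signals act on the central and posterior genes. In stem cells Polycomb complexes, which settle on promoters rich in CG pairs, hold the clusters silent. Fibroblasts keep the Hox code of the body region they came from.

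In mm10 the HoxA genes span chr6:52155590-52260880 on the minus strand. On the plus strand, HoxB spans chr11:96194316-96368256, HoxC chr15:102921103-103036852 and HoxD chr2:74668310-74765142. Promoter sequences of 22 of the 39 genes were matched in RefSeq (GRCm38.p6). The 250 bases before the RefSeq start are shown for Hoxd13, the most abundant member at day 0, for Hoxa13 and Hoxa10, which were higher in 6A at day 14, and for Hoxb4, an anterior gene that rose on differentiation. Their positions are chr2:74667975-74668224 (plus strand) for Hoxd13, chr6:52260881-52261130 (minus) for Hoxa13, chr6:52240855-52241104 (minus) for Hoxa10 and chr11:96318017-96318266 (plus) for Hoxb4. CG pairs are in capitals.
Hoxd13: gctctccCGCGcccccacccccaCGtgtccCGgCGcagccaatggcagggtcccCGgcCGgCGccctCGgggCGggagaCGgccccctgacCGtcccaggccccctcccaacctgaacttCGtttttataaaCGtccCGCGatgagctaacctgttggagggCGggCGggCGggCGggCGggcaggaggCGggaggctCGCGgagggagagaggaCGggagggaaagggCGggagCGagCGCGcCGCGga
Hoxa13: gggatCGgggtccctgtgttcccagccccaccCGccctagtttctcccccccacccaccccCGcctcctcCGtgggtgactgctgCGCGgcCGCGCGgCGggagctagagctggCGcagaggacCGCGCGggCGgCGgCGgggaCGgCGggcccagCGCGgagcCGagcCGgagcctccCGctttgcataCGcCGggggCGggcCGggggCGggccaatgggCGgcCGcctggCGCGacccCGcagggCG
Hoxa10: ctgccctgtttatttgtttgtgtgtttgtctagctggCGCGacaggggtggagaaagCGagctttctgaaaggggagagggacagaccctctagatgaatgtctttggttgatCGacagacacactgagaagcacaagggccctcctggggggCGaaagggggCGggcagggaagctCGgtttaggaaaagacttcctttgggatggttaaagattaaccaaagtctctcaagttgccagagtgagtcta
Hoxb4: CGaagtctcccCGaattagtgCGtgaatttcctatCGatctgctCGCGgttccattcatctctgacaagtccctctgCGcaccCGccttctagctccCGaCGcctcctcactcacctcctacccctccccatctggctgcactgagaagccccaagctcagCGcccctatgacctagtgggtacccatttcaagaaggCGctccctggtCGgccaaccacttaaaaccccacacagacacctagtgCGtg
In the 300 bases that run to 50 bases past the start, Hoxd13 held 37 CG pairs and Hoxa13 held 45, while Hoxa10 held 12 and Hoxb4 held 14. The median of the 22 Hox promoters was 13.5 pairs, against 7 over all 32851 promoters of the table. On either strand, TTTATG, a caudal-type motif, was in 5 of 22 Hox promoters (22.7%, against 11.9% of all promoters), and AGGTCA, a nuclear receptor motif, in 7 (31.8%, against 16.3%). TGACAG, a Meis-type motif, was in 2 (9.09%, against 19.2%), and TATAAA in 3 (13.6%, against 13.6%). Of the sequences printed, Hoxd13 holds TATAAA and Hoxb4 holds AGGTCA. The 22 promoters, 1 start per Hox gene, included 3 of HoxB and 1 of HoxC, while all starts were kept for the other genes. For Hoxa7, Hoxa9, Hoxd4 and Hoxc4 the RefSeq start lay 3281, 3719, 10049 and 15461 bases from the GENCODE M21 gene start. Of these, Hoxa7 and Hoxd4 held TTTATG, and Hoxd4 and Hoxc4 held AGGTCA. A match describes the letters and is no evidence of a bound site.

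Total counts ran from 8146684 to 15540163 per library, and 3 counts stood for 0.200 to 0.370 CPM (counts-per-million, on the TMM-adjusted library size used throughout). Between 29.1% and 31.6% of reads were given to a parental genome. Hnrnpk itself was at 880 and 709 CPM in WT and 527 and 538 in 6A at day 0. After differentiation it was at 495 and 474 in WT and 348 and 385 in 6A. Both differences passed the test (log2 fold change -0.58 ± 0.12 and -0.40 ± 0.12, edgeR adjusted p = 0.040 and 0.043). Since the substitution is not given, its RNA level is no check of the labels. Fold changes are log2 values ± standard error from edgeR's quasi-likelihood test, called at a Benjamini-Hochberg adjusted p under 0.05 over 15458 tested genes. The 33 Hox genes that passed the filter on low counts were tested. The other 6 (Hoxa6, Hoxb1, Hoxb5, Hoxb6, Hoxb13 and Hoxc11) had at most 9 counts in any library. A two-sided exact permutation test of a single gene could reach no lower than p = 0.333 in groups of 2, so calls lean on variance information that edgeR pools over genes. The labels call the libraries biological replicates without naming separate cultures, so the spread behind these p-values may be partly technical.

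The day 0 libraries held mostly posterior Hox RNA, and the day 14 libraries held anterior, central and posterior Hox RNA. Since day 0 cells had grown on fibroblasts, some of their Hox RNA may come from leftover feeder cells, which was not tested. The summed level of all 39 genes was 91.1 and 88.7 CPM in the WT day 0 libraries and 117 and 128 in the 6A day 0 libraries. The WT day 14 libraries held 116 and 105 CPM, and the 6A day 14 libraries 169 and 165. At each time the 6A libraries stood above the WT libraries, by a ratio of means of 1.36 at day 0 and 1.52 at day 14. In these bulk samples fewer cells of a type and less RNA per cell cannot be told apart. Posterior genes supplied 85.3% ± 3.61 (SD, n = 2) of Hox counts in WT at day 0 and 89.7% ± 2.21 in 6A. At day 14 their share was 40.2% ± 0.166 in WT and 49.5% ± 2.08 in 6A. Anterior genes supplied 7.75% ± 2.07 and 4.30% ± 0.312 at day 0, and 42.9% ± 1.62 and 31.9% ± 1.82 at day 14. HoxD gave 50.3% ± 3.71 of WT Hox counts at day 0 and 20.9% ± 1.10 at day 14, while HoxB gave 6.82% ± 0.259 and 32.6% ± 0.660.

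**Figure D1:**
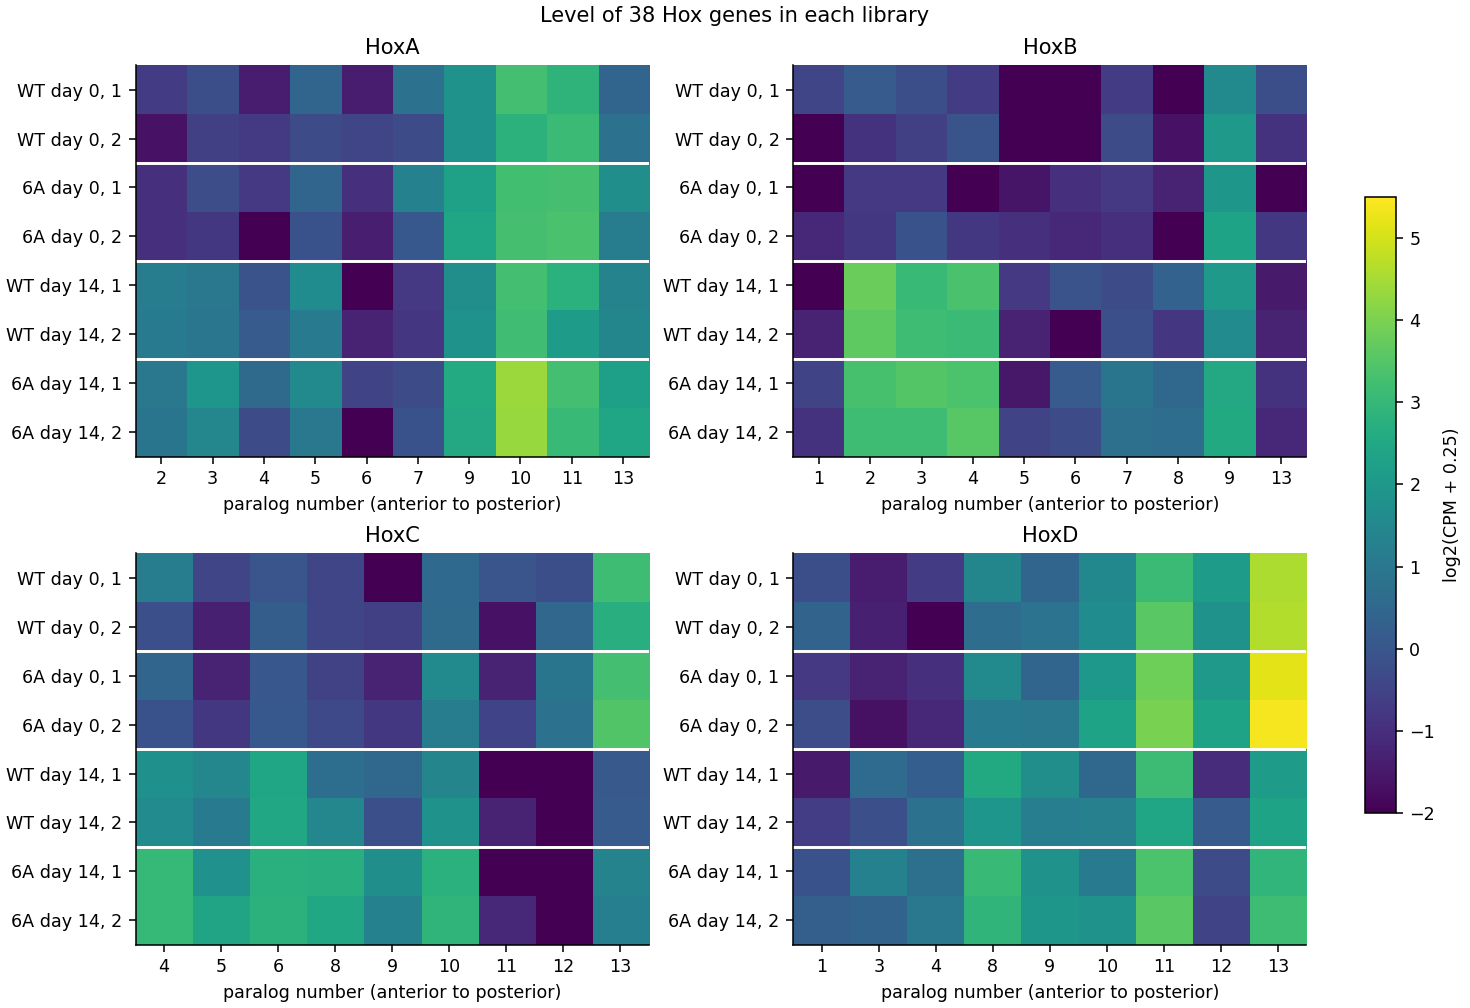
Level of Hox genes (columns, by paralog number) in each of the 8 libraries (rows, group and replicate), as log2(CPM + 0.25), 1 panel per cluster. At day 0 the bright cells are posterior, led by Hoxd13, and at day 14 paralogs 2 to 4 of HoxB are bright in all 4 libraries.

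Per kilobase of exon, Hoxd13, the most posterior HoxD gene, known for its part in distal limb and genital development, had the highest level at day 0. It stood at 9.78 ± 0.331 CPM per kb in WT and 15.8 ± 1.64 in 6A. Hoxa11 was next with 3.39 ± 0.363 in WT and 4.28 ± 0.135 in 6A, and its range overlapped that of Hoxc13 in both genotypes. Hoxd13 alone made up 26.0% and 28.0% of Hox counts in the WT day 0 libraries, and 31.1% and 33.1% in the 6A ones. At day 14 the order differed by genotype. In WT the highest levels per kb were those of Hoxb2 (3.72 ± 0.288) and Hoxb4 (3.58 ± 0.437), whose ranges overlapped, and Hoxa10 was at 2.80 ± 0.0559. In 6A Hoxa10 led with 6.20 ± 0.0851 CPM per kb, and its range did not overlap that of Hoxb4 (4.21 ± 0.318), which came next. Hoxa11, Hoxc10 and Hoxd13 followed at 3.82 ± 0.389, 3.64 ± 0.214 and 3.25 ± 0.412, each overlapping its neighbour. Exon lengths are those of GENCODE mouse release M21, which may differ from the annotation that was counted.

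On differentiation of WT cells, most of the tested anterior and central genes rose, and most of the called posterior genes fell. Of the 33 tested, 16 rose and 7 fell, against 38.4% and 36.8% of all tested genes. Their median log2 fold change was 1.33, against 0.04 over all tested genes. Among anterior genes 9 of 11 rose and 1 fell, among central genes 6 of 8 rose and 0 fell, and among posterior genes 1 of 14 rose and 6 fell. No central gene fell at an unadjusted p under 0.05 either. In 6A cells 22 of 33 rose and 4 fell, against 35.4% and 36.6%, with a median of 1.76 against -0.03. By position, 10 of 11 anterior, 7 of 8 central and 5 of 14 posterior genes rose, and the 4 that fell were all posterior. Without WT day 0 replicate 2 the WT calls dropped to 15, 10 higher and 5 lower. With upper quartile scaling, which moved the Hox fold changes by a median of 0.13 in WT and 0.12 in 6A, the WT split was 19 higher and 4 lower. DESeq2 called 14 higher and 4 lower in WT and 19 and 4 in 6A.

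The anterior HoxB genes, which pattern the hindbrain, had the 3 largest rises among the tested Hox genes in both genotypes. Hoxb2 went from 0.864 and 0.282 CPM to 13.68 and 12.3 in WT, and from 0.342 and 0.334 to 9.75 and 8.78 in 6A. Its log2 fold changes were 4.66 ± 0.35 and 4.74 ± 0.37 (edgeR adjusted p = 3.2e-08 and 5.7e-08). Hoxb3 went from 0.617 and 0.424 to 7.998 and 8.70 in WT, and from 0.342 and 0.668 to 10.9 and 8.69 in 6A. These were changes of 4.05 ± 0.35 and 4.20 ± 0.33. All day 14 libraries lay far above all day 0 libraries for both genes. Hoxb4, a factor of hindbrain and blood progenitors, went from 0.370 and 0.706 CPM to 9.97 and 8.38 in WT, and from 0 and 0.334 to 10.2 and 11.4 in 6A. These were changes of 3.95 ± 0.40 and 5.78 ± 0.46, the second resting on 5 counts in all at day 0. Hoxb8, Hoxd3 and Hoxd4 rested on at most 6 counts per group at day 0. In WT their day 14 to day 0 ratios of CPM were 13.6 (95% counting interval 2.04 to 578), 6.63 (1.95 to 35.0) and 9.42 (2.90 to 48.5).

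In HoxC the genes from Hoxc4 to Hoxc10 were higher at day 14, all past the test but Hoxc9 in WT (edgeR adjusted p = 0.070), and the cluster's end went the other way. Hoxc4 rose by 1.35 ± 0.43 in WT and 3.17 ± 0.38 in 6A, Hoxc8 by 2.02 ± 0.47 and 3.56 ± 0.39, and Hoxc10 by 1.21 ± 0.34 and 1.57 ± 0.27. Hoxc6, which acts in thoracic patterning, went from 0.740 and 0.918 CPM to 5.22 and 5.30 in WT and from 0.770 and 0.801 to 6.47 and 6.76 in 6A (2.61 ± 0.31 and 3.05 ± 0.29). Hoxc13, a gene of tail and hair follicle, fell from 8.76 and 6.43 to 0.811 and 0.870 in WT and from 9.32 and 10.9 to 2.32 and 2.12 in 6A. These were changes of -3.12 ± 0.32 and -2.18 ± 0.25 (edgeR adjusted p = 7.3e-07 and 3.5e-06). Hoxc12 had 21 counts in the WT and 42 in the 6A day 0 libraries and 0 in all 4 day 14 libraries. Its level was thus at least 6.69-fold lower in WT and at least 10.9-fold lower in 6A, with a floor of 3 counts over the group. In HoxD, Hoxd13 fell from 23.7 and 24.9 to 4.17 and 4.82 in WT and from 36.4 and 42.2 to 7.34 and 8.78 in 6A (-2.42 ± 0.18 and -2.29 ± 0.17). Hoxd12 fell from 4.07 and 3.39 to 0.232 and 0.870 in WT and from 3.93 and 4.87 to 0.579 and 0.483 in 6A (-2.59 ± 0.43 and -3.03 ± 0.43). All day 14 libraries of these 4 genes lay below all day 0 libraries of the same genotype. The interaction tests of Hoxc13, Hoxd12 and Hoxd13 did not pass. Hoxc13 was nearest, at 0.94 ± 0.44 (edgeR unadjusted p = 0.051, adjusted p = 0.27). With 0 counts at day 14, the interaction of Hoxc12 could not be estimated.

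Not all posterior genes fell. In HoxA, Hoxa9 and Hoxa10 did not pass the test in WT (-0.08 ± 0.26 and 0.21 ± 0.20). Nor did Hoxa13, the most posterior HoxA gene, at 1.11 and 1.48 CPM at day 0 and 2.32 and 2.45 at day 14 (0.84 ± 0.36, adjusted p = 0.051). Hoxa11, a gene of forearm and uterus, fell in WT (-0.57 ± 0.24), a call that was lost in 10 of 14 other settings. Hoxd11 also fell in WT (-0.61 ± 0.25), with the call lost in 5 of 14 settings, and was at -0.45 ± 0.23 in 6A without passing. The 1 anterior gene that fell in WT was Hoxd1 (-1.62 ± 0.69), whose call was lost in 9 of the 13 other settings that tested it. In 6A, Hoxa10 rose by 1.12 ± 0.18 and Hoxa13 by 0.93 ± 0.29 (lost in 3 of 14 settings), while Hoxa9 and Hoxa11 were at 0.20 ± 0.22 and -0.17 ± 0.22 without passing. Hoxb9 did not pass in either genotype (-0.05 ± 0.29 and 0.36 ± 0.26). Hoxd8, the central HoxD gene, rose in both (1.33 ± 0.36 and 1.76 ± 0.31), and Hoxd9 rose in 6A by 1.25 ± 0.34 and was at 0.84 ± 0.38 in WT without passing.

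**Figure D2:**
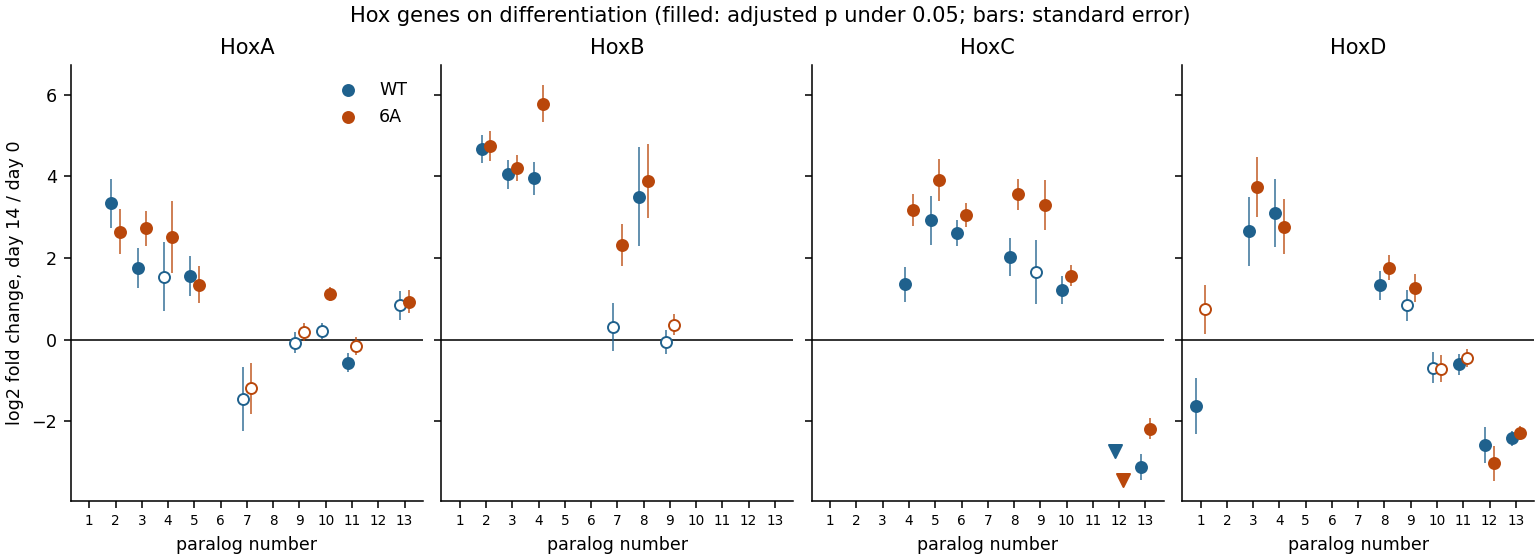
Log2 fold change of day 14 against day 0 (vertical axis) by paralog number (horizontal axis) for tested genes of each cluster, in WT (blue) and 6A (orange). Filled points passed the test, bars are standard errors, and triangles give Hoxc12 at its bound of 6.69-fold and 10.9-fold lower. Paralogs 1 to 6 lie above 0 but for Hoxd1 in WT, and paralogs 12 and 13 of HoxC and HoxD lie below.

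At day 0, summed RNA of Y-linked genes, of fibroblast markers and of posterior Hox genes was higher in both 6A libraries than in both WT libraries. Between the 6A libraries, the fibroblast and posterior Hox sums differed in opposite directions. The summed level of 7 Y-linked genes was 28.3 and 28.2 CPM in WT and 43.4 and 46.9 in 6A at day 0, a ratio of 1.60. Of the 7, Usp9y, Zfy1 and Zfy2 were at 0 counts in both genotypes at day 0 already. Of the 4 that were tested, 3 were higher at an unadjusted p under 0.05 and 0 after adjustment in edgeR, and DESeq2 called 0. At day 14 the sum was 0 and 0 in WT and 0.0966 and 0 in 6A, with all 7 genes at 0 counts in WT and 6 of 7 in 6A. The summed level of 24 fibroblast markers, none of them at 0 in day 0 libraries, was 2836 and 3005 CPM in WT and 4098 and 3358 in 6A at day 0, a ratio of 1.28. Of the 24, edgeR called 2 higher (Lox and Postn) and 0 lower, with 11 higher and 0 lower at an unadjusted p under 0.05, and DESeq2 called 4 higher. Over all 15458 tested genes 1.06% were called higher and 0.518% lower, and 2530 had such an unadjusted p in either direction. At day 14 the fibroblast sum was 14883 and 12939 in WT and 17845 and 13318 in 6A, a ratio of 1.12. The summed posterior Hox level was 75.4 and 78.0 CPM in WT and 103 and 116 in 6A at day 0, a ratio of 1.43. The part that leftover feeder cells have in the day 0 levels, and so in the falls of posterior genes, was not tested.

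**Figure D3:**
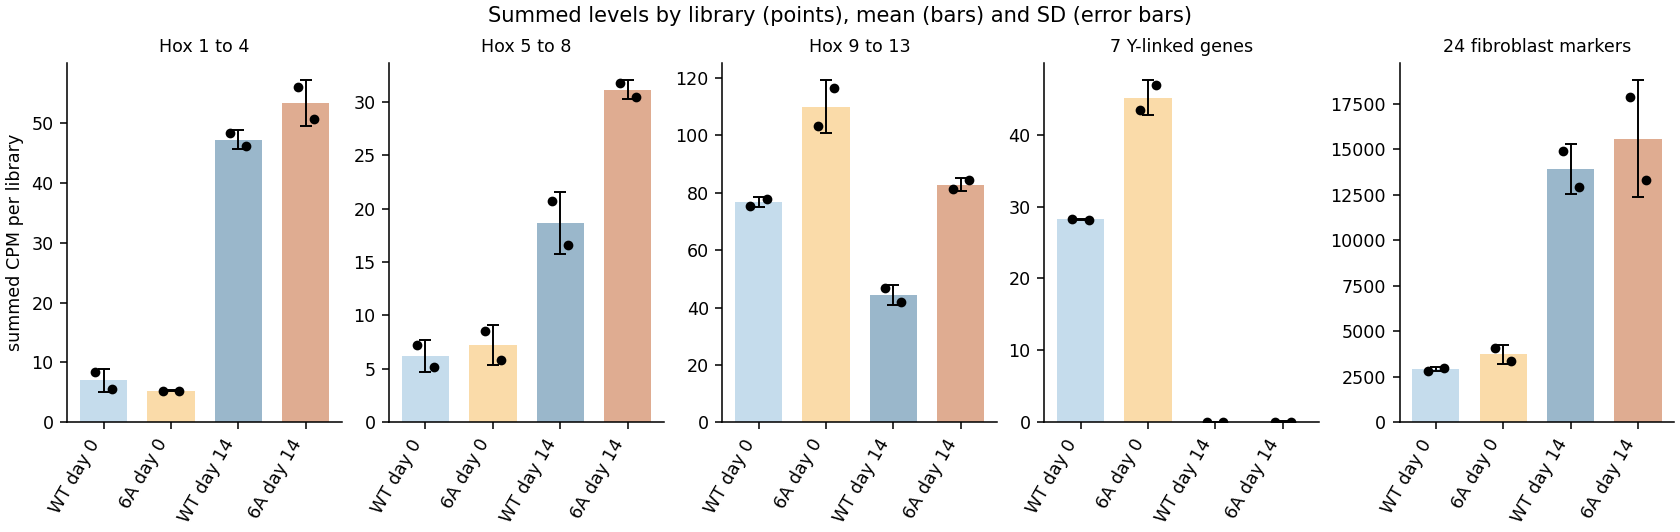
Summed CPM per library (points), with the mean (bars) and SD (error bars) of the 2 libraries of each group, for anterior (1 to 4), central (5 to 8) and posterior (9 to 13) Hox genes, 7 Y-linked genes and 24 fibroblast markers. Posterior Hox RNA and Y-linked RNA are both higher in the 6A day 0 libraries, and at day 14 the Y-linked sum is at or near 0 while posterior Hox RNA is at 42.0 to 84.4 CPM.

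Before differentiation, 1 of 33 Hox genes was higher in 6A and 0 were lower, against 1.06% and 0.518% of all tested genes. It was Hoxd13, at 23.7 and 24.9 CPM in WT and 36.4 and 42.2 in 6A (0.69 ± 0.15, edgeR adjusted p = 0.040). The 6A libraries did not overlap the WT libraries. At an unadjusted p under 0.05 edgeR gave 5 higher genes and 0 lower, against 2530 of all 15458 tested genes in either direction. DESeq2 called 0 in either direction. The Hoxd13 call was lost in 10 of 14 other settings, among them each fit without 1 of the 8 libraries, DESeq2 and a fit of the 2 groups alone. Its fold change was above 0 in all of them.

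Apart from Hoxd13, the day 0 differences did not pass the test, and their signs are given by position as a description. On leaving out 1 day 0 library, 5 to 9 of the 33 signs changed. Of the 14 posterior genes tested, 13 had a log2 fold change above 0 (median 0.49), as did 3 of 11 anterior genes (median -0.24) and 4 of 8 central genes (median 0.07). Over all tested genes the median was 0.01, and 52.0% were above 0. Both 6A libraries lay above both WT libraries for 9 of 33 genes, all posterior, and below for 3 (Hoxb4, Hoxb7 and Hoxd1). Over all tested genes these shares were 24.9% and 20.8%, so the Hox count of 9 is near the background. Hoxa9 was at 3.33 and 3.39 CPM in WT and 4.62 and 5.21 in 6A (0.55 ± 0.24, adjusted p = 0.27). Hoxd11, a limb and kidney gene, was at 8.39 and 11.7 in WT and 14.1 and 15.6 in 6A (0.54 ± 0.23, adjusted p = 0.26). Hoxc13 was at 8.76 and 6.43 in WT and 9.32 and 10.9 in 6A (0.44 ± 0.21, adjusted p = 0.33). Hoxa11 was at 7.16 and 8.33 in WT and 9.58 and 10.01 in 6A (0.33 ± 0.22, adjusted p = 0.48). None of these 4 genes passed the test, though their libraries did not overlap. Nor did Hoxa13, at 1.11 and 1.48 in WT and 3.08 and 2.00 in 6A (0.90 ± 0.35, adjusted p = 0.22), or Hoxc10, at 1.23 and 1.27 in WT and 2.74 and 2.00 in 6A (0.89 ± 0.34, adjusted p = 0.22). Hoxa10 overlapped between the genotypes, at 9.26 and 6.85 in WT and 9.06 and 9.55 in 6A (0.24 ± 0.19). So did Hoxc4, at 1.97 and 0.636 in WT and 1.11 and 0.668 in 6A, and Hoxc8, at 0.494 and 0.494 in WT and 0.428 and 0.534 in 6A. Hoxd8 was at 2.47 and 1.34 in WT and 2.74 and 1.87 in 6A (0.34 ± 0.39), again with overlap. These differences stand beside the ratios of 1.60 for Y-linked and 1.28 for fibroblast RNA given above.

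In differentiated cells, 8 of 33 Hox genes were higher in 6A and 0 were lower, against 5.33% and 8.31% of all tested genes. The median log2 fold change of the 33 was 0.77, against 0.00 over all tested genes, and it was above 0 for 27, below for 5 and 0 for Hoxc12, which had no counts there. The 8 were Hoxa9, Hoxa10, Hoxa13, Hoxc4, Hoxc8, Hoxc10, Hoxc13 and Hoxd13. By cluster, 4 of 8 HoxC, 3 of 10 HoxA, 1 of 9 HoxD and 0 of 6 HoxB genes were called. By position, 6 of 14 posterior, 1 of 8 central and 1 of 11 anterior genes were called. Both 6A libraries lay above both WT libraries for 22 genes and below for 3, Hoxa2 and Hoxb2 among them, against 28.2% and 28.5% of all tested genes. At an unadjusted p under 0.05 edgeR gave 16 higher and 1 lower, Hoxb2, against 4081 of all 15458 tested genes in either direction. DESeq2 called 3 higher (Hoxa10, Hoxc4 and Hoxd13) and 0 lower.

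HoxC had the largest difference as a cluster. Its summed level was 16.7 and 17.5 CPM in WT and 36.0 and 36.7 in 6A, a ratio of 2.13. Hoxc4, its most anterior gene, was at 3.13 and 2.85 CPM in WT and 7.92 and 7.92 in 6A (1.41 ± 0.32, edgeR adjusted p = 0.010). Hoxc8, which acts in motor neurons and ribs of the trunk, was at 1.39 and 2.53 in WT and 6.37 and 5.31 in 6A (1.52 ± 0.31, adjusted p = 0.0051). Hoxc10, a lumbar gene, was at 2.43 and 3.32 in WT and 6.66 and 7.24 in 6A (1.24 ± 0.27, adjusted p = 0.0065). Hoxc13 was at 0.811 and 0.870 in WT and 2.32 and 2.12 in 6A (1.38 ± 0.38, adjusted p = 0.027). In each of these 4 genes the lower 6A library was above the higher WT library. Hoxc9, between the called genes, was at 1.16 and 0.633 in WT and 3.09 and 2.22 in 6A and missed the threshold (1.62 ± 0.51, adjusted p = 0.051). Hoxc6, the most abundant HoxC gene in WT at this time, was at 5.22 and 5.30 in WT and 6.47 and 6.76 in 6A (0.33 ± 0.23, adjusted p = 0.40). The Hoxc5 model overlaps Hoxc6, Hoxc8, Hoxc9 and Hoxc10 on the same strand, so reads of shared stretches cannot be placed with certainty.

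In HoxA the 3 genes called at day 14 were all posterior. Hoxa10, a gene of lumbar vertebrae, uterus and blood progenitors, was at 9.27 and 9.01 CPM in WT and 20.5 and 20.1 in 6A (1.15 ± 0.18, edgeR adjusted p = 0.00082). Its call held in all 14 other settings. Hoxa9, a regulator of blood progenitors, was at 3.01 and 3.32 in WT and 5.79 and 5.502 in 6A (0.82 ± 0.24, adjusted p = 0.037). Hoxa13, a gene of distal limb, hindgut and allantois, was at 2.32 and 2.45 in WT and 4.44 and 5.12 in 6A (0.99 ± 0.30, adjusted p = 0.042). DESeq2 called neither Hoxa9 nor Hoxa13 (DESeq2 adjusted p = 0.20 and 0.22). Hoxa11 was at 6.61 and 4.19 in WT and 9.37 and 8.11 in 6A and did not pass (0.73 ± 0.24, adjusted p = 0.060). The summed posterior HoxA level was 21.2 and 19.0 CPM in WT and 40.1 and 38.8 in 6A, a ratio of 1.96. The anterior HoxA sum was 11.2 and 11.2 in WT and 12.4 and 9.75 in 6A, a ratio of 0.984. Among the anterior genes, Hoxa3 was at 1.74 and 1.66 in WT and 3.57 and 2.51 in 6A and did not pass (0.84 ± 0.36, adjusted p = 0.15). The ends of the cluster were not tested against each other.

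Hoxd13 was the called member of HoxD at day 14, at 4.17 and 4.82 CPM in WT and 7.34 and 8.78 in 6A (0.83 ± 0.20, edgeR adjusted p = 0.014). Hoxd8 was at 5.68 and 3.56 in WT and 8.21 and 7.24 in 6A (0.77 ± 0.29, adjusted p = 0.11), and Hoxd11 at 8.58 and 5.14 in WT and 10.1 and 11.7 in 6A (0.70 ± 0.25, adjusted p = 0.083). Both pairs stood apart without passing the test. HoxB, which supplied most anterior Hox RNA at day 14, had a summed level of 38.3 and 33.6 CPM in WT and 40.9 and 38.8 in 6A, a ratio of 1.11. Its central genes summed to 2.67 and 1.11 in WT and 3.77 and 3.86 in 6A, a ratio of 2.02. Its posterior genes had a ratio of 1.67. Hoxb7 (1.32 ± 0.47), Hoxb8 (1.00 ± 0.64) and Hoxb9 (0.76 ± 0.28) did not pass the test (edgeR adjusted p = 0.083, 0.35 and 0.093). Both 6A libraries lay above both WT libraries for each of them. Hoxb2 was at 13.68 and 12.3 in WT and 9.75 and 8.78 in 6A (-0.48 ± 0.22, adjusted p = 0.19). Hoxb4 was at 9.97 and 8.38 in WT and 10.2 and 11.4 in 6A (0.25 ± 0.26, adjusted p = 0.61). Hoxb3 was at 7.998 and 8.70 in WT and 10.9 and 8.69 in 6A (0.23 ± 0.22, adjusted p = 0.58), and its libraries overlapped. Taking the 4 clusters together, the ratio of summed levels was 1.13 for anterior, 1.67 for central and 1.87 for posterior genes. HoxB held 30.6 of the 47.2 CPM of anterior genes in WT. Anterior and posterior ratios were 0.984 and 1.96 in HoxA and 0.990 and 1.67 in HoxB. They were 2.65 and 2.54 in HoxC, where Hoxc4 is the only anterior gene, and 1.67 and 1.59 in HoxD. The order by position was thus not shared by all clusters. These ratios carry no test.

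**Figure D4:**
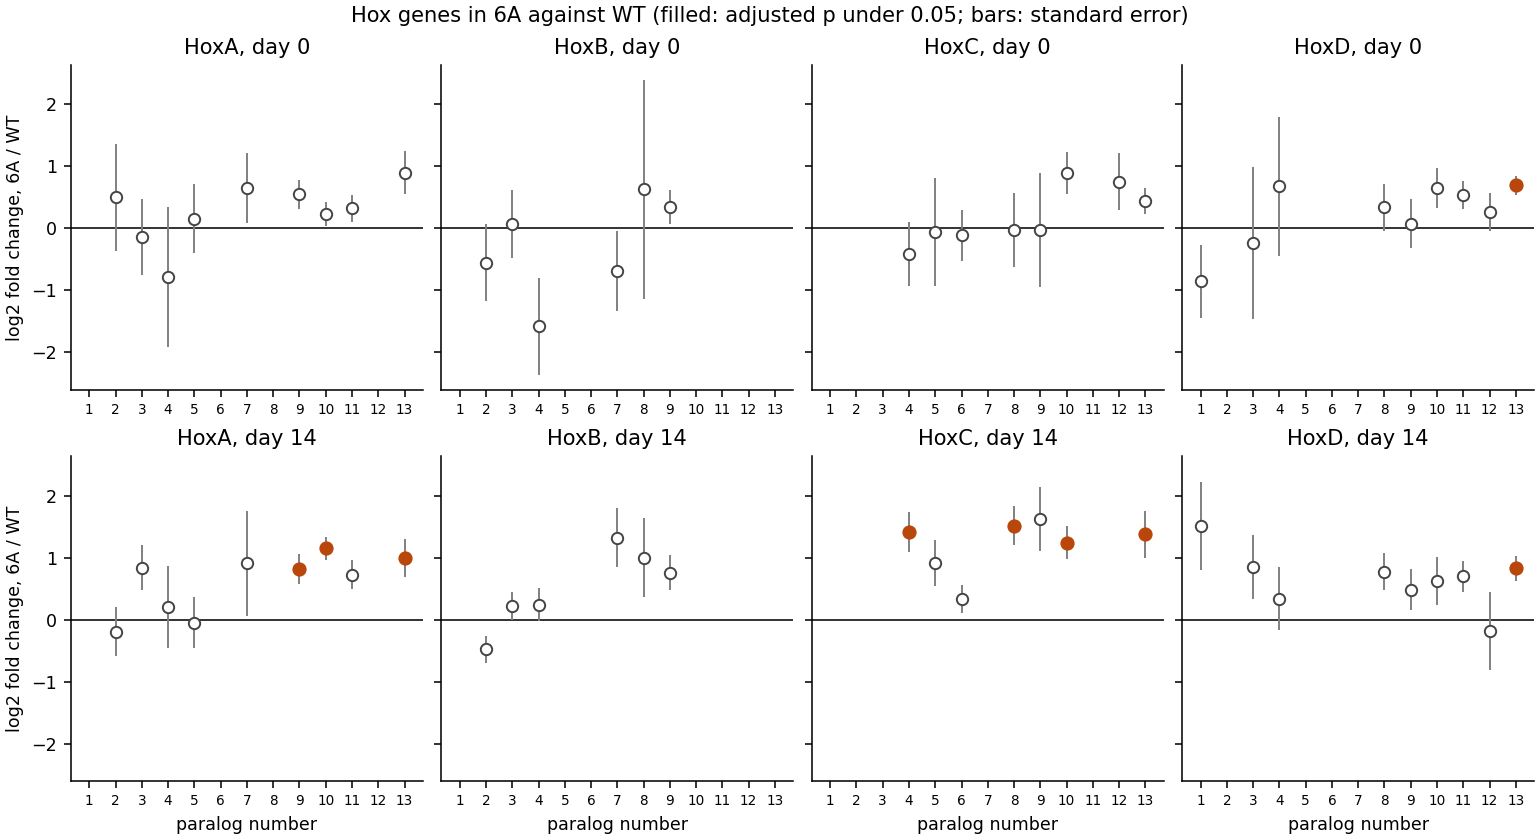
Log2 fold change of 6A against WT (vertical axis) by paralog number (horizontal axis) for tested genes of each cluster, at day 0 (top) and day 14 (bottom), with standard errors. Filled points passed the test: Hoxd13 at day 0, and 8 genes at day 14, of which 4 are in HoxC and 3 at the posterior end of HoxA. Hoxc12 is left out at day 14, where it had no counts.

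Whether the 6A difference changed between day 0 and day 14 was tested by the interaction term, which called 0 of 33 Hox genes, against 1.4% higher and 3.34% lower over all tested genes. DESeq2 also called 0, and at an unadjusted p under 0.05 edgeR gave 6 (Hoxa10, Hoxb4, Hoxb7, Hoxc4, Hoxc8 and Hoxd1), all higher. That number is near the background, since 2909 of all 15458 tested genes had such a p in either direction. Interaction estimates were above 0 for 26 of 33 Hox genes (median 0.40), against 48.9% of all tested genes (median -0.01). These signs carry no test, and the 33 include Hoxc12, whose interaction could not be estimated. The interaction was 0.91 ± 0.27 for Hoxa10 (edgeR adjusted p = 0.069) and 1.82 ± 0.61 for Hoxc4 (adjusted p = 0.12). Both were called without the filter on low counts and without WT day 0 replicate 2. For Hoxd13 it was 0.13 ± 0.25 (adjusted p = 0.84). The larger number of calls at day 14 is thus not shown to be a difference between the times for any single member. The day 14 count also leaned on each library of that time: without any 1 of the 4, 3 Hox genes were called. Without WT replicate 1 these were Hoxa10, Hoxa11 and Hoxd11, and without WT replicate 2 they were Hoxa10, Hoxc10 and Hoxc8. Without 6A replicate 1 they were Hoxa10, Hoxc10 and Hoxd13, and without 6A replicate 2 Hoxa10, Hoxc8 and Hoxc4.

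Regulators of the clusters were described from lists. Over all 15458 tested genes, edgeR called 5.33% higher and 8.31% lower in 6A at day 14, and 1.06% and 0.518% at day 0. An unadjusted p under 0.05 was found for 2530 of them at day 0 and 4081 at day 14, in either direction. Of the Cdx genes, which act on central and posterior Hox genes, Cdx2 had 3 and 22 counts in WT and 59 and 58 in 6A at day 14 (2.29 ± 0.47, edgeR adjusted p = 0.0068), with 0 and 3 counts in WT and 0 and 0 in 6A at day 0. Cdx1 was not tested, with at most 13 counts in a library. Cdx4 had 7 and 10 counts in WT and 14 and 32 in 6A at day 0 (1.14 ± 0.52, adjusted p = 0.30), and 0 to 2 counts in each day 14 library. Of 15 tested genes of the posterior axis and tail bud, 6 were higher in 6A at day 14 and 1 was lower. Lin28a, an RNA-binding protein of early progenitors, was at 49.7 and 55.3 CPM in WT and 106 and 109 in 6A (edgeR adjusted p = 4.6e-05). Greb1, a gene of axial progenitors, was at 15.5 and 15.6 in WT and 30.9 and 29.7 in 6A (adjusted p = 0.0015). The gene that was lower was Dll1, a Notch ligand of the presomitic mesoderm and of neural progenitors, at 11.9 and 11.1 in WT and 3.57 and 4.44 in 6A (adjusted p = 0.00041). At day 0 edgeR and DESeq2 called 0 of the 15, with 4 at an unadjusted p under 0.05 in edgeR, 1 higher and 3 lower.

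Of 18 retinoic acid pathway genes, 2 were higher and 5 lower in 6A at day 14 (2 and 3 with DESeq2). Over all tested genes the shares were 5.33% and 8.31% at day 14, and 1.06% and 0.518% at day 0. Aldh1a1, an enzyme that makes retinoic acid, was at 17.3 and 18.9 CPM in WT and 57.9 and 56.1 in 6A (adjusted p = 6.7e-06). Crabp1, which binds retinoic acid in the cell, was at 20.9 and 18.7 in WT and 6.57 and 6.47 in 6A (adjusted p = 2.0e-05). Cyp26b1, which degrades it, was at 20.3 and 17.0 in WT and 7.24 and 7.63 in 6A (edgeR adjusted p = 0.0013). The members thus moved in both directions. At day 0, edgeR called 0 of the 18 higher and 1 lower, and DESeq2 called 0, with 1 higher and 4 lower at an unadjusted p under 0.05 in edgeR. Of 30 Polycomb subunits, 2 were higher and 0 lower at day 14. The higher share is near the 5.33% of all tested genes. Cbx7, a subunit that reads the Polycomb mark in stem cells, was at 25.5 and 27.6 in WT and 40.8 and 44.0 in 6A (adjusted p = 0.0043). Cbx6, another such subunit, was at 113 and 113 in WT and 201 and 162 in 6A (adjusted p = 0.0050). At day 0 Bmi1 was called, at 25.7 and 19.1 in WT and 36.4 and 35.7 in 6A (edgeR adjusted p = 0.0499). Of 13 MLL-type activators, demethylases and CTCF, edgeR and DESeq2 called 0 in 6A against WT at either time, and 0 had an unadjusted p under 0.05 in edgeR. Of 9 Pbx, Meis and Pknox genes, whose proteins bind DNA with Hox factors, both tools also called 0 at either time. At an unadjusted p under 0.05 edgeR gave 1 of these 9 higher at day 0 and 3 lower at day 14. At day 14 against day 0, edgeR called 7 of the 9 higher and 1 lower in each genotype. Over all tested genes these shares were 38.4% and 36.8% in WT and 35.4% and 36.6% in 6A.

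Markers of several cell types differed between the day 14 cultures. The counts are edgeR calls, beside 5.33% higher and 8.31% lower over all tested genes. In 6A, 11 of 15 tested forebrain and midbrain markers were lower and 0 higher, with list sums of 101 and 101 CPM in WT and 35.6 and 37.6 in 6A. For hindbrain and spinal cord markers, 10 of 14 were lower and 0 higher (6 and 0 with DESeq2), with sums of 157 and 138 in WT and 94.5 and 89.9 in 6A. Cardiac muscle markers were lower in 13 of 14, with sums of 1659 and 1841 in WT and 338 and 313 in 6A. Of 7 tested somite markers 4 were lower, with sums of 85.5 and 78.1 in WT and 29.4 and 31.6 in 6A, and of 16 lateral plate markers 3 were lower (2 with DESeq2), with sums of 1312 and 1179 in WT and 1227 and 1266 in 6A. Blood markers were higher in 10 of 15 and lower in 0, with sums of 199 and 204 in WT and 420 and 429 in 6A. Endothelial markers were higher in 4 of 11, with sums of 326 and 332 in WT and 462 and 471 in 6A. Endoderm markers were higher in 5 of 17 and lower in 1, with sums of 1813 and 1658 in WT and 2207 and 2245 in 6A. Pluripotency markers were higher in 5 of 13, with sums of 667 and 628 in WT and 817 and 820 in 6A. Urogenital markers were higher in 1 of 9 and lower in 2 (1 and 1 with DESeq2), with sums of 137 and 144 in WT and 196 and 204 in 6A. The part of cell composition in the Hox differences at day 14 was not tested.

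Reads given to a parental genome set the clusters apart. Over all genes 80.5% of such reads were given to 129 in WT at day 0 and 80.03% in WT at day 14. In HoxD 98.5% were (323 of 328 reads, 95% exact binomial interval 96.5% to 99.5%) in WT at day 0 and 96.2% (102 of 106, 90.6% to 99.0%) at day 14. In HoxB the share was 61.7% (29 of 47, 46.4% to 75.5%) in WT at day 0, and 57.3% (125 of 218, 50.5% to 64.0%) in WT and 62.5% (125 of 200, 55.4% to 69.2%) in 6A at day 14. These intervals cover counting error only. Genes within 5 Mb of each cluster, leaving out the Hox genes, gave a similar split. Their 129 share ran from 96.8% to 98.1% around HoxD, from 97.8% to 99.1% around HoxA, from 93.0% to 94.5% around HoxC and from 51.3% to 56.2% around HoxB. A high 129 share was common: at day 14, 61.0% of 11972 genes with at least 50 allele reads had a share of 95% or more. At day 14 Hoxb2 had 75 CAST and 137 129 reads, Hoxb3 26 and 34, and Hoxb4 35 and 36, over the 4 libraries. Hoxa10 had 1 CAST and 144 129 reads, and Hoxa11 0 and 70. So the 129 genome supplied nearly all assigned HoxD reads at both times, and both genomes supplied HoxB reads.

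In HoxA the CAST share at day 0 was above that of the genes around the cluster. The CAST genome had 2 of 47 and 10 of 87 HoxA reads in the WT libraries and 17 of 98 and 18 of 111 in the 6A libraries. By group this was 8.96% in WT and 16.7% in 6A, against 2.04% and 2.21% for the 116 genes within 5 Mb. After differentiation it was 2.21% in WT and 4.62% in 6A, against 0.908% and 0.996%. At day 0 Hoxa10 had 0 CAST and 31 129 reads in WT, and 14 and 47 in 6A. Hoxa11 had 9 CAST and 27 129 reads in WT and 8 and 44 in 6A, so its CAST reads came from both genotypes. Hoxa9 had 0 and 43 in WT and 2 and 72 in 6A. In HoxC the CAST share was 14.8% in WT (8 of 54 reads) and 10.3% in 6A (7 of 68) at day 0. It was 12.5% in WT (5 of 40) and 16.7% in 6A (18 of 108) at day 14, against 5.45% to 6.96% around the cluster. The 95% exact binomial intervals of the 129 share were 79.9% to 95.8% in 6A at day 0 and 73.2% to 95.8% in WT at day 14. Both cover the values around the cluster, 93.0% and 94.5%. At day 0 Hoxc13 held 8 of the 8 WT and 6 of the 7 6A CAST reads. Hoxa13 had few assigned reads, with 0 CAST and 4 129 reads in WT and 9 and 0 in 6A at day 14. Without it the HoxA CAST share was 7.63% in WT and 15.5% in 6A at day 0, and 2.27% and 0.873% at day 14. Leaving out Hoxd13, which had the most reads, the 129 share of all Hox reads at day 0 went from 92.4% to 89.0% in WT and from 91.8% to 86.8% in 6A. Fibroblast markers had a 129 share of 87.6% and 88.3% at day 0 and of 68.3% and 65.0% at day 14. The method that gave reads to a genome was not given in the sources used here. Y-linked and fibroblast RNA were also higher in the 6A day 0 libraries, and their part in the HoxA allele values was not tested.

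**Figure D5:**
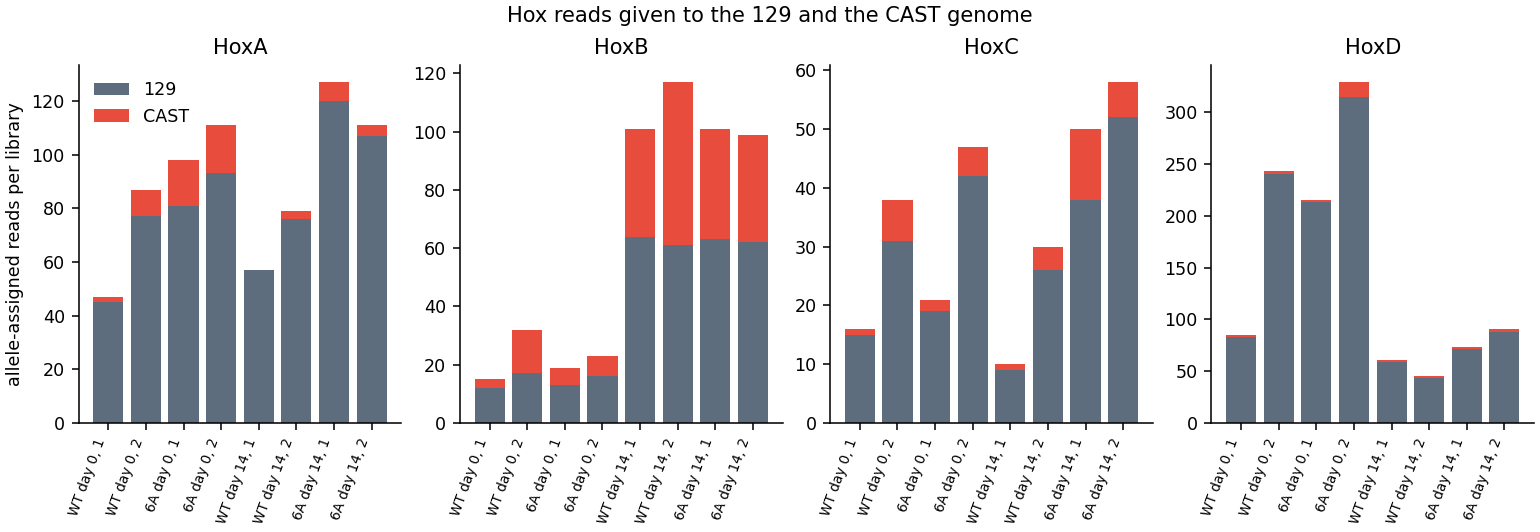
Hox reads given to the 129 genome (grey) and to the CAST genome (red), stacked, in each library (horizontal axis, group and replicate), 1 panel per cluster with its own scale. HoxD bars are almost wholly 129, HoxB bars at day 14 hold between 37 and 56 CAST reads, and HoxA bars hold 17 and 18 CAST reads in the 6A day 0 libraries.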

How the data were processed

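Counts of all reads and of reads given to the CAST and 129 genomes, for 24421 genes in 8 libraries, were deposited by the authors as raw counts. Per the labels, ribosomal RNA was depleted and directional paired-end libraries were sequenced. The submitters' processing notes name cutadapt 1.4.2, STAR 2.7.10a and mm10. The counting tool, its strand setting, the annotation and the allele method were not given in the sources used here. Related Hox sequences and overlapping gene models could therefore share reads. Genes were kept by filterByExpr, scaled by TMM and fitted in edgeR 4.0.16 (R 4.3.3), with 1 coefficient per group over all 8 libraries and 4 residual degrees of freedom. The fit was tested on simulated data. Standard errors are the size of the fold change over the square root of F. Alternatives were DESeq2 1.42.0, RLE and upper quartile scaling, no filter, the 2 groups alone, a replicate block and leaving out each library. Positions and exon lengths came from GENCODE mouse release M21. The members and lists were chosen with earlier results of these data known. A member is described with every library's value where it was called in 6A against WT or in the interaction, or was among the 3 most abundant of its cluster. Other Hox genes given with values, such as Hoxc9 and Hoxd12, were chosen after their values were seen. From each regulator list, up to 3 genes by adjusted p at day 14 and up to 2 at day 0 are named, with the Cdx genes. Values of 1 Hox gene and of 1 listed gene are not reported here, and the plots of single Hox genes leave that Hox gene out.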

Additional observations from a re-analysis of the deposited data

How the results depend on the processing

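Hox calls depended on the setting in number and not in direction: no Hox fold change called as reported changed sign in any alternative. At day 0 the number called, 1 as reported, was 0 with DESeq2, 0 with only the 2 groups fitted, and 0 to 0 over the fits without 1 library each. At day 14 it was 8 as reported, 3 with DESeq2, and 3 to 11 over the fits without 1 library each. It was 10 with RLE scaling, 12 without the filter on low counts and 12 with the 2 groups alone. For WT differentiation it was 23 as reported and 15 to 22 over the fits without 1 library each, the lowest without WT day 0 replicate 2. The interaction count was 0 as reported, 2 without the filter on low counts, and 0 to 2 over the fits without 1 library each. With the replicate number as a block, the counts were 1 at day 0, 9 at day 14, 23 for WT differentiation, 27 for 6A differentiation and 0 for the interaction. The labels do not say that a number marks a shared culture, and deviations of same-numbered libraries correlated by 0.00814 to 0.32, so the numbers were not taken as pairs. Signs of genes that were not called were less stable. On leaving out 1 day 0 library, 5 to 9 of the 33 signs at day 0 changed, with 9 without WT replicate 2. Up to 8 of the 33 interaction signs changed, again without WT day 0 replicate 2. Over the fits without 1 library each, the day 0 fold change of Hoxb2 ran from -1.33 to 0.24 and that of Hoxb3 from -0.52 to 0.42. Hoxc6 ran from -0.22 to 0.084 and Hoxd8 from -0.13 to 0.75 at day 0. The Hoxa13 interaction ran from -0.20 to 0.42. Without Hoxd13, the 129 share of Hox reads at day 0 was 89.0% in WT and 86.8% in 6A. The causes were not tested. Depth limits the anterior and central genes at day 0, many of which had under 10 counts per library.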

Other observations

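Noncoding RNAs inside the clusters had few counts. Hotair, the HoxC antisense RNA known for its link to Polycomb, had 0 counts in all 8 libraries, and Hottip, at the posterior end of HoxA, had 1 to 18. Hoxa11os, the antisense partner of Hoxa11, had 28 and 81 counts in WT and 78 and 75 in 6A at day 0, and 39 and 72 in WT and 97 and 75 in 6A at day 14. Without the strand setting its reads cannot be told apart from those of Hoxa11. Of 15 tested noncoding RNAs and flanking genes, 2 were higher in 6A at day 14 and 0 lower, against 5.33% and 8.31% of all tested genes. Both were flanking genes of HoxA. Tax1bp1, an autophagy receptor, was at 157 and 189 CPM in WT and 234 and 251 in 6A (edgeR adjusted p = 0.015). Snx10, a sorting nexin, was at 13.6 and 13.9 in WT and 31.3 and 21.04 in 6A (edgeR adjusted p = 0.0496). At day 0 edgeR and DESeq2 called 0 of the 15, with 1 higher and 1 lower at an unadjusted p under 0.05 in edgeR.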
